A study of Sus scrofa with 12 samples.

Results

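The genes described here are 56 members of the NF-kB, cytokine and chemokine system, taken by symbol from the RNA sequencing counts of porcine aortic valve interstitial cells (paVICs), the fibroblast-like cells of the valve leaflet. Of these, 52 had a row among the 31908 genes of the count table and 50 had enough counts to be tested, out of 13216 genes tested in all. CXCL16, CCL20, IL11RA and NFKBIB had no row. IL15 was at 0 to 0.876 CPM (counts scaled to library size, here with TMM factors) and was not tested, and CSF2 had 0 counts in all 12 libraries, where 3 counts would be worth 0.114 to 0.186 CPM.

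NF-kB is a family of transcription factors (NFKB1, NFKB2, REL, RELA and RELB) held in the cytoplasm by inhibitory IkB proteins until toll-like, interleukin-1 or tumor necrosis factor receptors signal through kinases that release them. Released dimers switch on chemokines, cytokines, adhesion molecules, prostaglandin enzymes and their own inhibitors. IL-6 family cytokines use a separate route, in which receptors pair with the shared chain gp130 (encoded by IL6ST) and activate JAK kinases and STAT3. Both routes are active in inflamed, calcifying aortic valves, and valve interstitial cells both secrete and answer such signals.

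The study asked how dantrolene, a blocker of the ryanodine receptor calcium channel, changes the response of paVICs to lysophosphatidylcholine (LPC), an oxidized-lipoprotein lipid that induces calcification. Wild-type cells were treated for 24 h in medium with 1% bovine growth serum in 4 groups of 3 libraries, namely vehicle, 10 µM LPC, 60 µM dantrolene and LPC + dantrolene. Vehicle held 0.6% DMSO and 0.1% ethanol, LPC alone had 0.6% DMSO added and dantrolene alone 0.1% ethanol. By the paper's methods LPC was dissolved in ethanol and dantrolene in DMSO, with vehicle volumes matched to them. Replicates 1, 2 and 3 of each group came from the same 3 isolations, each pooled from the valves of several pigs and run on its own day, and cells were grown on plastic after the endothelium had been wiped off. Replicates with the same number were taken to share an isolation, which the labels do not name.

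Total counts ranged from 16489684 to 24105935 per library, and no pair of libraries held identical counts. Summed levels of 10 fibroblast markers were 106000 to 112000 CPM in vehicle, 69100 to 106000 with LPC, 66300 to 95200 with dantrolene and 75400 to 129000 with LPC + dantrolene. Of 10 leukocyte markers PTPRC, CD163, CD3E and LYZ were at 0 in every library, and the summed level was 12.6 to 28.8 CPM. Of 8 endothelial markers the summed level was 86.5 to 88.9 CPM in vehicle, 64 to 71.2 with LPC, 48.9 to 67.1 with dantrolene and 53.5 to 62.3 with LPC + dantrolene, and the part of this decline in the values below was not tested. Fewer cells of a kind and less RNA per cell cannot be told apart in bulk RNA. LPC + dantrolene replicate 2 was the lowest of its group in 46.5% and the highest in 42.6% of all genes tested, and dantrolene replicates 1 (41.8% and 41.1%) and 2 (41.8% and 40.8%) came next. Among the 50 tested members, dantrolene replicate 1 was the lowest of its group in 64%, LPC replicate 2 the lowest in 58% and vehicle replicate 2 the highest in 58%. There LPC + dantrolene replicate 2 was the lowest in 52% and the highest in 34%.

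A gene was called where edgeR's quasi-likelihood test gave an adjusted p under 0.05 over all genes tested. Few members were called, and those that were fell into separate patterns. All treatments raised IL6ST, LIFR, JAK2 and TLR3, a set of receptors and 1 kinase. CXCL8, the neutrophil chemoattractant interleukin-8, rose in both dantrolene groups compared to vehicle, as did PTGS2 and IL1RAP, while SLPI fell in both. With LPC alone these 4 genes did not pass the test, and of the 4 only SLPI differed between dantrolene and LPC when those 2 groups were compared directly. The NF-kB subunits NFKB1, NFKB2, RELA and RELB, the cytokines IL6, LIF and IL11, and the adhesion molecules ICAM1 and VCAM1 were not called in any comparison.

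**Figure D1:**
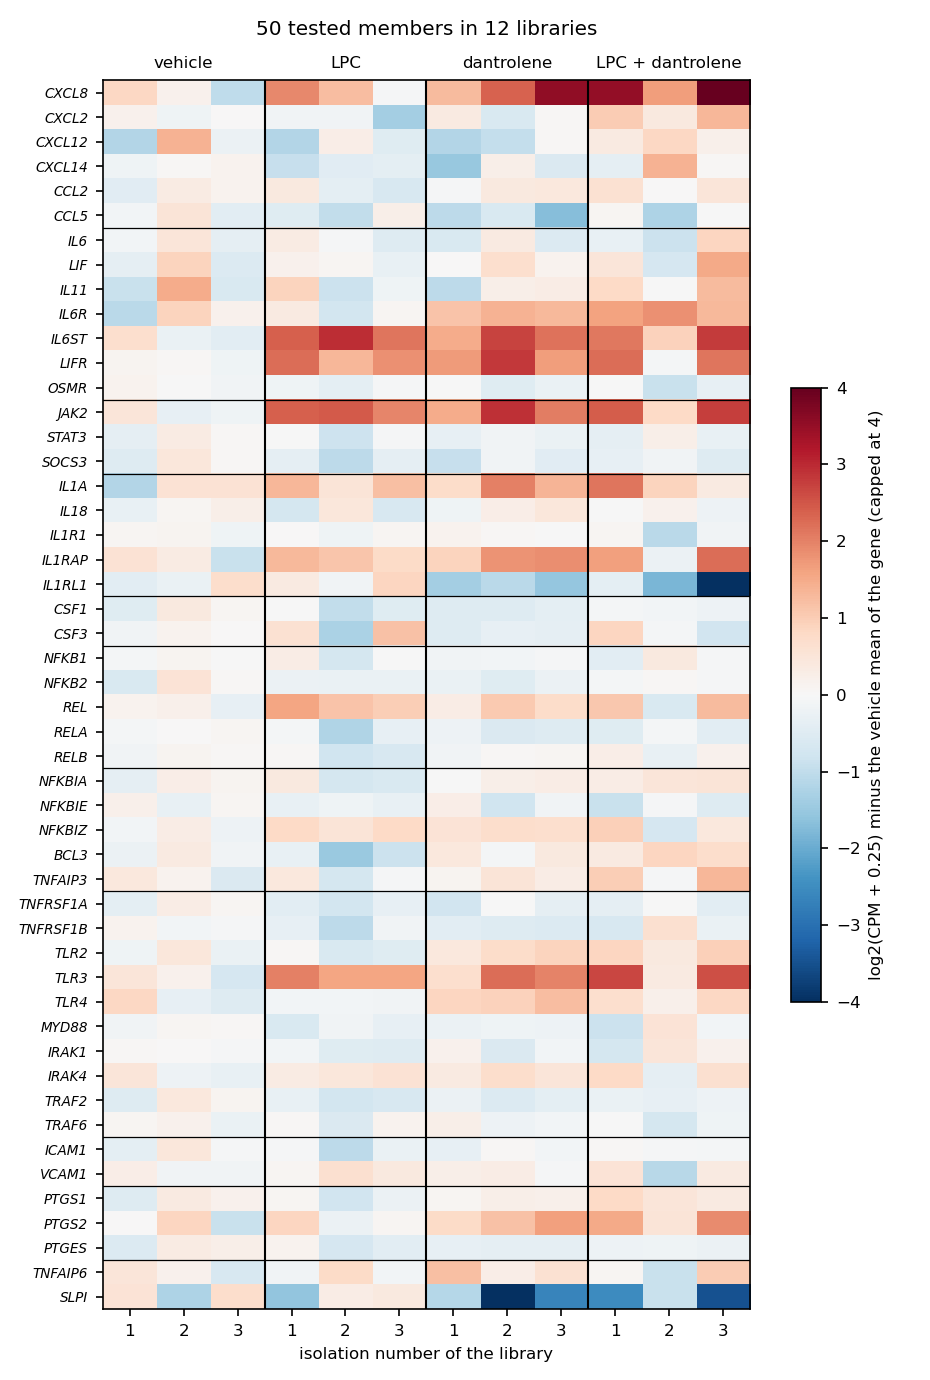
Heat map of the 50 tested members (vertical axis, grouped by role) in 12 libraries (horizontal axis, isolation number within each group), coloured by log2(CPM + 0.25) minus the vehicle mean of that gene. The rows for IL6ST, LIFR, JAK2 and TLR3 are red in most treated libraries, CXCL8 is darkest in LPC + dantrolene replicate 3, and SLPI is blue in the dantrolene groups.

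Compared to vehicle, LPC raised 5 of the 50 members and lowered 0, which is 10% against a background of 8.69% of all genes tested (8.54% up and 0.144% down). The 5 were IL6ST, LIFR, JAK2, REL and TLR3. The median log2 fold change of the members was -0.25, beside -0.18 for all genes tested, and 15 members had a positive and 35 a negative fold change. At an unadjusted p under 0.05, 8 members were higher and 1 lower.

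Dantrolene raised 7 members (CXCL8, IL6ST, LIFR, JAK2, IL1RAP, TLR3 and PTGS2) and lowered SLPI, which is 16% of the members beside 8.8% of all genes (7.54% up and 1.26% down). The median member changed by -0.01 and the median gene by -0.11, or by 0.23 and 0.13 when only total counts were used for scaling. With LPC + dantrolene, 8 members rose (the same 7 and IL6R) and 2 fell (SLPI and IL1RL1), 20% of the members beside 7.14% of all genes (6.23% up and 0.9% down), with medians of 0.19 and -0.08. These comparisons share the vehicle libraries, so a call made in several of them is not independent.

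**Figure D2:**
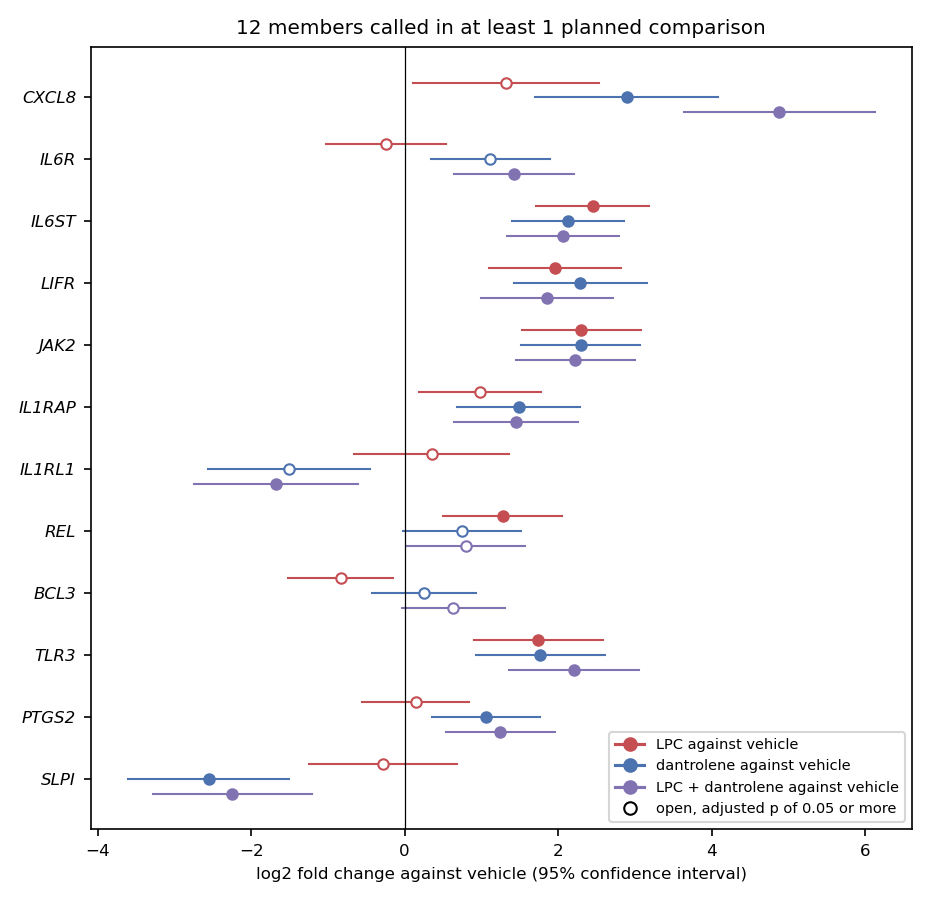
Log2 fold changes against vehicle (horizontal axis) with 95% confidence intervals for the 12 members called in at least 1 planned comparison (vertical axis), for LPC, dantrolene and LPC + dantrolene. Filled points had an adjusted p under 0.05. IL6ST, LIFR, JAK2 and TLR3 sit near 2 in all 3 comparisons, whereas CXCL8, IL6R, PTGS2, IL1RL1 and SLPI are displaced from 0 mainly in the dantrolene comparisons.

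Against LPC alone, LPC + dantrolene raised CXCL8, IL6R and BCL3 and lowered 0 members (6%, beside 0.507% of all genes, 0.219% up and 0.288% down). Dantrolene against LPC lowered SLPI alone (2%, beside 0.325% of all genes, 0.113% up and 0.212% down). LPC + dantrolene against dantrolene called 0 members (beside 0.0227% of all genes, 0.0151% up and 0.00757% down) by the edgeR quasi-likelihood test, with 2 members, CXCL8 and CXCL2, higher at an unadjusted p under 0.05, and 0 lower. DESeq2 also called 0 members there. When the effect of dantrolene was averaged over the groups without and with LPC, a contrast added after seeing the data, 10 members rose and 2 fell (24%, beside 4% of all genes, 2.55% up and 1.45% down), and all 12 libraries then entered each value. The average effect of LPC, added likewise, called 4 members up, namely CXCL8, IL6ST, JAK2 and TLR3, and 0 down (8%, beside 3.13% of all genes, 3.1% up and 0.0303% down). All 4 of these were lost with the replicate block and on total counts alone, where the genes raised over the whole table fell from 410 to 2 and 3.

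CXCL8, at chromosome 8, 69932646 to 69935861 (RefSeq, Sscrofa11.1, as for the positions that follow), was the member with the largest change. Its level was 1.05, 0.584 and 0.116 CPM in vehicle replicates 1 to 3, 2.56, 1.47 and 0.463 CPM with LPC, 1.53, 3.5 and 8.4 CPM with dantrolene, and 8.1, 2.11 and 43 CPM with LPC + dantrolene. Every library of both dantrolene groups lay above every vehicle library, while the LPC libraries overlapped with vehicle. Vehicle counts were only 22, 10 and 2, and vehicle replicate 3 lay below the 0.174 CPM that 3 counts were worth there. Fold changes of CXCL8 against vehicle therefore rest on a baseline near the floor. Means were 0.583 ± 0.466 (SD, n = 3), 1.5 ± 1.05, 4.48 ± 3.54 and 17.7 ± 22.1 CPM. Replicate 3 alone held 62.5% of the summed level of the dantrolene group and 80.8% of that of the LPC + dantrolene group, so those means describe mostly 1 library.

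CXCL8 changed by 2.89 ± 0.60 (log2, SE) with dantrolene compared to vehicle (adjusted p = 0.000325) and by 4.88 ± 0.63 with LPC + dantrolene (adjusted p = 6.65e-08). With LPC alone the value was 1.32 ± 0.61 (adjusted p = 0.243), higher in 3 of 3 isolations, and it passed the test without LPC replicate 3 (1.75, adjusted p = 0.0107). LPC + dantrolene exceeded LPC by 3.56 ± 0.57 (adjusted p = 7.82e-05), a call lost without LPC + dantrolene replicate 3 (1.77, adjusted p = 0.308), without LPC replicate 2 (adjusted p = 0.21), with the replicate block (adjusted p = 0.0753), with DESeq2 (adjusted p = 0.142) and on total counts alone (adjusted p = 0.0668). Dantrolene against LPC gave 1.57 (adjusted p = 0.405). CXCL8 in LPC + dantrolene against dantrolene alone was 1.99 ± 0.53 (adjusted p = 0.427). That comparison became a call without any of vehicle replicate 3 (adjusted p = 0.00891), LPC replicate 3 (0.00716), dantrolene replicate 3 (0.000453) or LPC + dantrolene replicate 2 (0.0121). DESeq2 also did not call CXCL8 in dantrolene against vehicle (adjusted p = 0.0951). The average effect of dantrolene on CXCL8, 3.23 ± 0.41 (adjusted p = 6.33e-08), passed in all 18 alternatives tried, with adjusted p from 4.75e-19 to 0.00691.

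The other chemokines gave no call. CXCL2, another neutrophil chemokine, was at 4.96, 3.85 and 4.42 CPM in vehicle, 3.94, 3.96 and 1.54 with LPC, 5.69, 2.82 and 4.58 with dantrolene, and 9.1, 5.78 and 11.5 with LPC + dantrolene. The 3 LPC + dantrolene libraries lay above all the other 9, but the difference from vehicle, 0.99 ± 0.41, had an adjusted p of 0.176 and that from LPC, 1.48, one of 0.094. Without LPC + dantrolene replicate 2 CXCL2 passed against vehicle (1.27, adjusted p = 0.0144) and against LPC (1.70, adjusted p = 0.0114). Calls over all genes rose without that library too, from 824 up and 119 down to 1706 and 393 against vehicle. Those against LPC went from 29 and 38 to 53 and 87, and genes raised by LPC alone from 1129 to 1623. This background applies to every pass without that library given below. CCL2, which recruits monocytes, was abundant at 88.9 to 208 CPM and differed from vehicle by -0.18, 0.23 and 0.35 in the 3 treatments, with all 95% intervals between -0.83 and 1.00. CCL5, a lymphocyte chemokine, was at 0.6 to 3.74 CPM, and CXCL12 and CXCL14 were at or below 2.05 CPM in every library, where their intervals spanned several log2 units.

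PTGS2 encodes cyclooxygenase-2, the inducible enzyme of prostaglandin synthesis, at chromosome 9, 127850164 to 127858866. Its level was 49.7, 89.6 and 26.2 CPM in vehicle, 89.7, 41.9 and 51.2 with LPC, 83.1, 110 and 152 with dantrolene, and 139, 70.3 and 183 with LPC + dantrolene. Vehicle replicate 2 lay within the range of both dantrolene groups. PTGS2 rose by 1.06 ± 0.35 with dantrolene (adjusted p = 0.0431) and by 1.25 ± 0.36 with LPC + dantrolene (adjusted p = 0.0145), and with LPC it differed by 0.14 ± 0.36 (adjusted p = 0.851, 95% interval -0.56 to 0.84). Dantrolene against LPC was 0.92 (adjusted p = 0.595). With the replicate block the adjusted p values of the 2 calls were 0.145 and 0.0987. The dantrolene call was also lost with DESeq2 (adjusted p = 0.0892) and on total counts alone (0.0514), and the LPC + dantrolene call in a fit of only the groups compared (0.0693).

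With 1 library left out, the dantrolene call for PTGS2 was lost without vehicle replicate 1 (adjusted p = 0.224) or 3 (0.426), LPC replicate 1 (0.0773) or 2 (0.121), dantrolene replicate 2 (0.14) or 3 (0.306), or LPC + dantrolene replicate 1 (0.0525). The LPC + dantrolene call was lost without vehicle replicate 1 (0.136) or 3 (0.244), LPC replicate 2 (0.0655), or LPC + dantrolene replicate 1 (0.0681) or 3 (0.231). The average effect of dantrolene on PTGS2 was 1.08 ± 0.25 (adjusted p = 0.00399) and failed only without LPC replicate 2 (adjusted p = 0.0973) among the 18 alternatives. PTGIS, the prostacyclin synthase of a wider list, was lower in the average effect of dantrolene (-0.80, adjusted p = 0.034), which was lost in 13 of 18 alternatives, among them DESeq2 (0.0664) and the replicate block (0.107), and it was not called between any pair of groups. PTGS1, the constitutive cyclooxygenase, at 93.4 to 279 CPM, and PTGES, which makes prostaglandin E2, at 17.8 to 35.9 CPM, were not called in any comparison. Among 11 tested genes of a wider prostaglandin list, PLA2G4A, the phospholipase that frees arachidonic acid for these enzymes, rose in every treatment, by 1.78 ± 0.36 with LPC (adjusted p = 0.000148), 2.18 ± 0.36 with dantrolene (1.33e-05) and 2.29 ± 0.36 with both (7.29e-06). These 3 calls of PLA2G4A held in all 19 alternatives. Of that list 9.09%, 18.2% and 9.09% were called with the 3 treatments, beside 8.69%, 8.8% and 7.14% of all genes. PTGFR, the prostaglandin F receptor, rose with dantrolene by 1.23 ± 0.37 (adjusted p = 0.0208), a call lost with the replicate block (0.0619) and without vehicle replicate 1 (0.0886), 2 (0.0602) or 3 (0.113), LPC replicate 2 (0.0582) or dantrolene replicate 2 (0.28).

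SLPI encodes a secreted inhibitor of neutrophil elastase that also damps NF-kB signaling, at chromosome 17, 47595804 to 47598364. SLPI was at 14.4, 4.03 and 16.2 CPM in vehicle, 3.12, 12.2 and 13.1 with LPC, 4.33, 0.305 and 1.36 with dantrolene, and 1.53, 5.22 and 0.652 with LPC + dantrolene. The groups overlapped, because vehicle replicate 2 was low and 1 library of each dantrolene group was high (dantrolene replicate 1, 72.2% of its group's sum, and LPC + dantrolene replicate 2, 70.6%). SLPI fell by 2.55 on the log2 scale with dantrolene (SE 0.53, adjusted p = 0.000312, lower in 3 of 3 isolations) and by 2.24 with LPC + dantrolene (SE 0.52, adjusted p = 0.00153, lower in 2 of 3). With LPC alone it differed by -0.29 (adjusted p = 0.791).

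DESeq2 did not call SLPI in either comparison with vehicle (adjusted p = 0.133 and 0.271). The LPC + dantrolene call was also lost with the replicate block (adjusted p = 0.0582) and without vehicle replicate 1 (0.0739), LPC replicate 2 (0.0582) or LPC + dantrolene replicate 1 (0.0667). Dantrolene against LPC gave -2.27 for SLPI (adjusted p = 0.0189), and 10 of 19 alternatives lost that call, among them the replicate block (0.394) and leaving out LPC replicate 2 (0.668), dantrolene replicate 2 (0.438), vehicle replicate 1 (0.256) or 2 (0.0887), LPC replicate 1 (0.0527) or LPC + dantrolene replicate 1 (0.0626). Averaged over both settings, the effect of dantrolene on SLPI was -2.26 ± 0.37 (adjusted p = 2.12e-05) and was lost only with DESeq2 (adjusted p = 0.0664). TNFAIP6, a secreted hyaluronan-binding protein that restrains inflammation, was at 4.22 to 18.9 CPM and was not called.

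**Figure D3:**
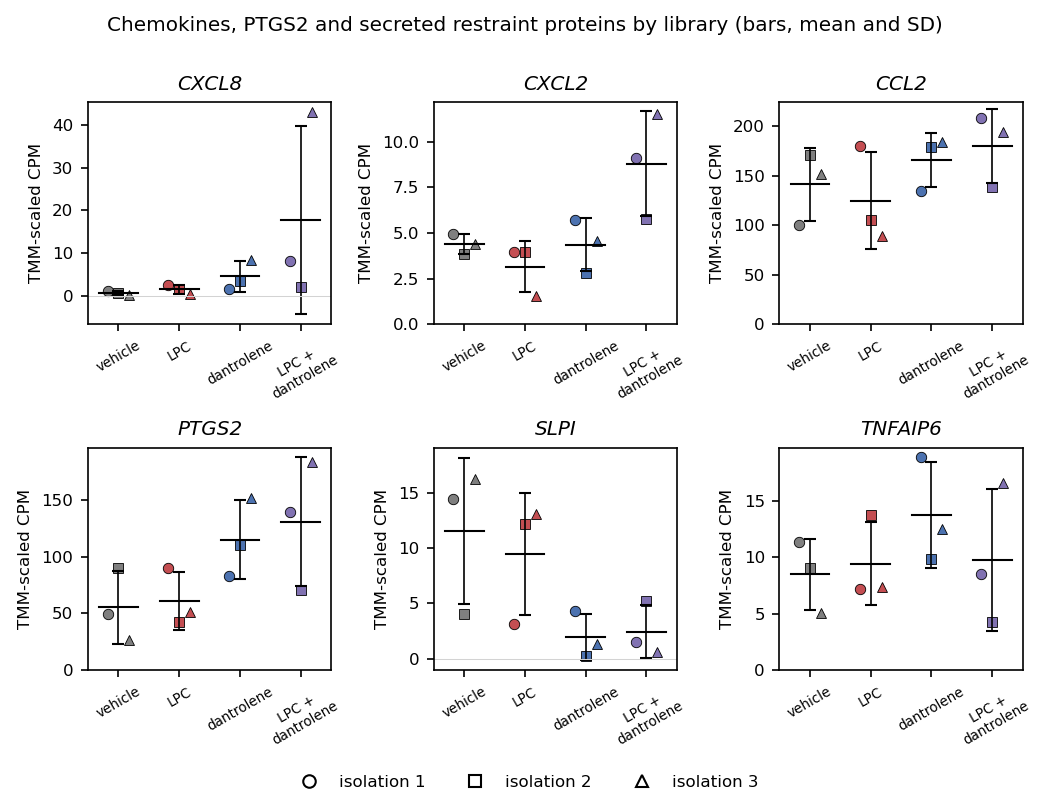
TMM-scaled CPM (vertical axes) of CXCL8, CXCL2, CCL2, PTGS2, SLPI and TNFAIP6 in each library of the 4 groups (horizontal axes), with marker shapes for the 3 isolations and bars for the mean and SD. The CXCL8 mean of LPC + dantrolene is set by a single library at 43 CPM, and for SLPI 2 vehicle libraries lie above all dantrolene and LPC + dantrolene libraries.

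Of 10 tested IL-6 family and JAK-STAT relay members, IL6ST, LIFR and JAK2 rose in every treatment, while STAT3, SOCS3 and OSMR were not called. Over all genes tested, 8.54% rose with LPC, 7.54% with dantrolene and 6.23% with LPC + dantrolene. A rise in every treatment is not particular to these members, since the paper reports that most raised genes were common to its treatments. IL6ST, the shared signaling chain at chromosome 16, 35101304 to 35151832, was at 74, 38.9 and 34.8 CPM in vehicle, 245, 358 and 205 with LPC, 131, 307 and 210 with dantrolene, and 202, 89.1 and 327 with LPC + dantrolene. All 9 treated libraries lay above all vehicle libraries, and LPC + dantrolene replicate 2 was the lowest of the treated ones. IL6ST rose by 2.45 ± 0.37 with LPC (adjusted p = 2.04e-06), 2.13 ± 0.37 with dantrolene (2e-05) and 2.07 ± 0.37 with LPC + dantrolene (3.82e-05).

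LIFR, the receptor chain that joins gp130 to bind leukemia inhibitory factor, was at 2.38, 2.28 and 1.92 CPM in vehicle, 11.3, 5.92 and 8.44 with LPC, 7.61, 17.1 and 7.48 with dantrolene, and 11.2, 2.05 and 10.6 with LPC + dantrolene. LPC + dantrolene replicate 2 lay at the vehicle level, and the other 8 treated libraries lay above it. JAK2, the kinase that gp130 activates, at chromosome 1, 216849744 to 217002310, was at 5.68, 3.15 and 3.54 CPM in vehicle, 22, 23.2 and 16.1 with LPC, 11.7, 31.7 and 17.3 with dantrolene, and 22.5, 7.08 and 28.3 with LPC + dantrolene, again with replicate 2 nearest to vehicle. LIFR rose by 1.96 ± 0.43, 2.29 ± 0.43 and 1.86 ± 0.43 (adjusted p = 0.00057, 8.35e-05 and 0.00149) and JAK2 by 2.30 ± 0.39, 2.29 ± 0.39 and 2.22 ± 0.39 (9.95e-06, 1.73e-05 and 3.38e-05). These 9 calls of IL6ST, LIFR and JAK2 against vehicle held in all 19 alternatives tried for each.

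In the fit of all 12 libraries, the joint effect of LPC and dantrolene on these genes was smaller than the sum of the single effects. The called share was near that of all genes, and the calls depended on single libraries. The interaction subtracts the LPC effect measured without dantrolene from that measured with it. It was -2.52 ± 0.50 for IL6ST (adjusted p = 0.000995), -2.39 ± 0.59 for LIFR (0.00654) and -2.37 ± 0.53 for JAK2 (0.00285). These were 3 of the 50 members (6%), all negative, beside 4.65% of all genes (4.49% negative and 0.159% positive). The negative interactions over all genes, 593, numbered 4 without LPC replicate 2 and 31 without dantrolene replicate 2. LPC + dantrolene differed from LPC alone by -0.39 for IL6ST (95% interval -1.09 to 0.31), -0.10 for LIFR (-0.91 to 0.70) and -0.08 for JAK2 (-0.81 to 0.65). Each interaction was lost without LPC replicate 2 (IL6ST and LIFR adjusted p = 0.0837, JAK2 0.085) and without dantrolene replicate 2 (IL6ST 0.0519, LIFR 0.141, JAK2 0.0922), and that of LIFR also without LPC replicate 1 (0.0725). On total counts alone the LIFR interaction had an adjusted p of 0.0561.

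IL6R, the ligand-binding interleukin-6 receptor chain at chromosome 4, 95322426 to 95381393, was higher in the groups with dantrolene. It was at 1.91, 8.29 and 4.94 CPM in vehicle, 5.64, 2.5 and 4.58 with LPC, 9.85, 11.7 and 11.1 with dantrolene, and 13.6, 16.1 and 10.9 with LPC + dantrolene. Every library with dantrolene lay above every library without it, and LPC + dantrolene replicate 2 was here the highest of all. IL6R rose by 1.43 ± 0.39 with LPC + dantrolene compared to vehicle (adjusted p = 0.00974) and by 1.67 ± 0.39 compared to LPC (0.0183), whereas dantrolene against vehicle gave 1.12 ± 0.39 (0.0572) dantrolene against LPC 1.36 (0.139) and LPC against vehicle -0.25 (0.778).

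The IL6R call against vehicle was lost without vehicle replicate 1 (adjusted p = 0.158), and in a fit of only the groups compared (0.062). That against LPC was lost with the replicate block (0.17), on total counts alone (0.137), with only the groups compared (0.105) and without LPC replicate 1 (0.0614), 2 (0.403) or 3 (0.0771). The value for dantrolene against vehicle became a call without vehicle replicate 2 (0.0184), LPC replicate 3 (0.0497), or LPC + dantrolene replicate 2 (0.0112) or 3 (0.0466). For IL6R the average effect of dantrolene was 1.39 ± 0.28 (adjusted p = 0.000581) and passed in all 18 alternatives, with adjusted p from 5.94e-05 to 0.0283.

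The ligands and the outputs of the same route gave no call. IL6, at 5.84 to 19.6 CPM, differed from vehicle by -0.08, -0.24 and 0.03 in LPC, dantrolene and LPC + dantrolene, and LIF, at 3.91 to 18.7 CPM, by -0.15, 0.16 and 0.57. IL11 was at 4.01, 22 and 4.94 CPM in vehicle, where replicate 2 held 71.1% of the sum, and its values with treatment lay between 3.56 and 18.7 CPM. OSMR, the oncostatin M receptor chain, was at 29.8 to 61.9 CPM, and STAT3, the transcription factor at the end of the relay, at 184 to 412 CPM. SOCS3, a STAT3 target that switches gp130 off, was at 20.6, 40.8 and 30.3 CPM in vehicle, and its fold changes were -0.61, -0.53 and -0.39, with adjusted p of 0.4, 0.495 and 0.785 and intervals reaching from -1.28 to 0.28. Without LPC + dantrolene replicate 2, LIF passed in LPC + dantrolene against vehicle (1.01, adjusted p = 0.0464), where rises over all genes numbered 1706 in place of 824.

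**Figure D4:**
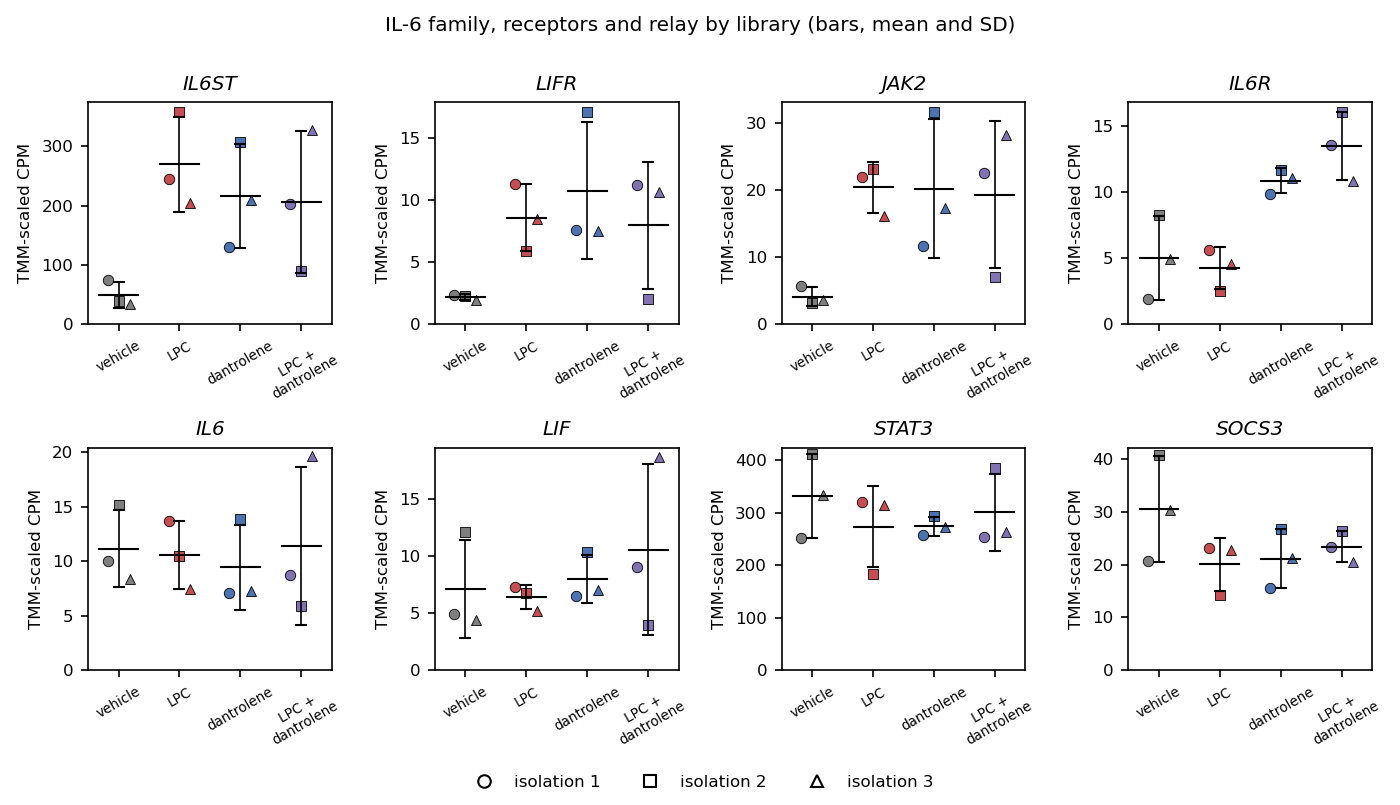
TMM-scaled CPM (vertical axes) of IL-6 family ligands, receptors and relay genes in each library of the 4 groups (horizontal axes), with marker shapes for the isolations and bars for the mean and SD. IL6ST, LIFR and JAK2 are higher in the treated libraries, with LPC + dantrolene replicate 2 low for all 3 genes, IL6R is higher in the groups with dantrolene, and IL6, LIF, STAT3 and SOCS3 overlap between groups.

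Of 18 tested genes on a wider list of gp130 and JAK-STAT genes, LPC raised 4, dantrolene 3 and LPC + dantrolene 2, and 0 were lowered in these comparisons (22.2%, 16.7% and 11.1%, beside 8.69%, 8.8% and 7.14% of all genes called). SOCS4, a SOCS box adaptor, rose by 2.48 ± 0.38, 2.26 ± 0.38 and 2.16 ± 0.38 (adjusted p = 2.55e-06, 1.6e-05 and 3.38e-05). PIAS1, a SUMO ligase, rose by 1.94, 1.83 and 1.74 (each SE 0.39, adjusted p = 0.000148, 0.00044 and 0.000953). SOCS5 rose with LPC (1.11, adjusted p = 0.0216) and with dantrolene (1.12, 0.0211), and PTPN11, the phosphatase SHP2, with LPC (1.16, 0.0158). The interactions of SOCS4 (-2.58, adjusted p = 0.000995) and PIAS1 (-2.04, 0.0113) were negative, as for IL6ST. That of SOCS4 was lost without LPC replicate 2 (0.0679) or dantrolene replicate 2 (0.0553), and that of PIAS1 without vehicle replicate 2 (0.0993), LPC replicate 1 (0.0567) or 2 (0.131) or dantrolene replicate 2 (0.185), with the replicate block (0.0514) and on total counts alone (0.0775).

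The SOCS4 calls against vehicle held in all 19 alternatives, as did those of PIAS1 except with LPC + dantrolene when its replicate 1 was left out (adjusted p = 0.0595). PTPN11 was lost without vehicle replicate 1 (0.0546), 2 (0.0788) or 3 (0.119) or LPC replicate 1 (0.105) or 2 (0.0822). SOCS5 was lost in both treatments with the replicate block (0.0557 and 0.0576) and without vehicle replicate 1 or 3, and also without LPC replicate 1 or 2 or dantrolene replicate 2 or 3 (0.0595 to 0.215).

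Among interleukin-1 family genes the accessory receptor rose and the IL-33 receptor fell. IL1RAP, the chain that interleukin-1 and IL-33 receptors share, at chromosome 13, 127933239 to 128071984, was at 6.68, 5.55 and 2.27 CPM in vehicle, 11.3, 9.83 and 7.61 with LPC, 8.43, 15.8 and 16.5 with dantrolene, and 14.4, 3.67 and 21.6 with LPC + dantrolene. Every LPC and dantrolene library lay above vehicle, whereas LPC + dantrolene replicate 2 lay within it. IL1RAP rose by 1.49 ± 0.40 with dantrolene (adjusted p = 0.00794) and by 1.45 ± 0.40 with LPC + dantrolene (0.0113), and with LPC the value was 0.98 ± 0.40 (0.146). Dantrolene against LPC was 0.51 (adjusted p = 1).

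The dantrolene call for IL1RAP was lost without vehicle replicate 2 (adjusted p = 0.0505) or 3 (0.0936), LPC replicate 2 (0.0562) or dantrolene replicate 2 (0.0839). The LPC + dantrolene call was lost with the replicate block (0.0987), with only the groups compared (0.0966) and without vehicle replicate 2 (0.0639) or 3 (0.139), LPC replicate 2 (0.0743), or LPC + dantrolene replicate 1 (0.0718) or 3 (0.392). Without LPC + dantrolene replicate 2, IL1RAP passed in LPC against vehicle (1.04, adjusted p = 0.0195).

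IL1RL1, the receptor for IL-33, at chromosome 3, 51868549 to 51902454, was at 3.91, 4.32 and 8.72 CPM in vehicle, 6.86, 4.83 and 9.88 with LPC, 1.92, 2.36 and 1.64 with dantrolene, and 4, 1.3 and 0 with LPC + dantrolene. All dantrolene libraries lay below all vehicle and LPC libraries, and in the LPC + dantrolene group replicate 1, which held 75.4% of the sum, lay at the vehicle level. IL1RL1 fell by 1.67 on the log2 scale with LPC + dantrolene (SE 0.54, adjusted p = 0.0381), and with dantrolene the value was -1.51 ± 0.53 (0.0602).

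The call was weak, since 14 of 19 alternatives lost it. Among them were DESeq2 (adjusted p = 0.59), total counts alone (0.313) and the replicate block (0.148), and it was also lost without vehicle replicate 1 (0.103), 2 (0.107) or 3 (0.318), LPC replicate 1 (0.115) or 2 (0.195), dantrolene replicate 1 (0.0783) or 2 (0.0558), or LPC + dantrolene replicate 2 (0.0866) or 3 (0.418). For IL1RL1 the average effect of dantrolene was -1.76 ± 0.38 (adjusted p = 0.00155), and it was lost with DESeq2 (0.234) and on total counts alone (0.0685) but not when any 1 library was left out. IL33 itself, from a wider list, rose by 1.37 ± 0.38 with LPC (adjusted p = 0.0101), 2.44 ± 0.39 with dantrolene (8.5e-06) and 2.19 ± 0.39 with LPC + dantrolene (4.23e-05). Of these calls only that with LPC was lost in an alternative, namely without vehicle replicate 1 (0.072) or 3 (0.0973) or LPC replicate 1 (0.0613) or 2 (0.169). IL1A was at 0.0477 to 2.74 CPM, with replicate 1 holding 63.2% of the LPC + dantrolene sum, and IL18, at 2.2 to 5.27 CPM, and the signaling receptor IL1R1, at 26.9 to 63.1 CPM, were not called.

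Toll-like receptors differed from one another. TLR3, the endosomal sensor of double-stranded RNA, at chromosome 15, 46966262 to 46977774, was at 3.82, 3.04 and 1.57 CPM in vehicle, 11.4, 8.47 and 8.44 with LPC, 4.33, 13.3 and 11.1 with dantrolene, and 18.4, 3.48 and 17.1 with LPC + dantrolene. LPC + dantrolene replicate 2 lay within the vehicle range and dantrolene replicate 1 just above it. TLR3 rose by 1.74 ± 0.42 with LPC (adjusted p = 0.00199), 1.77 ± 0.42 with dantrolene (0.00205) and 2.21 ± 0.43 with LPC + dantrolene (0.000129), and the second of these calls was lost without dantrolene replicate 2 (1.45, adjusted p = 0.0722).

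TLR2, which senses bacterial lipoproteins, was at 3.91, 6.13 and 3.6 CPM in vehicle, 4.56, 2.82 and 3.09 with LPC, 5.97, 7.58 and 8.35 with dantrolene, and 8.15, 5.9 and 8.77 with LPC + dantrolene. TLR2 was not called between any pair of groups, and the average effect of dantrolene, 0.90 ± 0.28, just passed (adjusted p = 0.0457) and was lost in 12 of 18 alternatives, among them the replicate block (0.129) and each library left out except LPC + dantrolene replicate 2 and dantrolene replicate 1 (0.05 to 0.172). TLR4, the lipopolysaccharide receptor, was at 11.6, 5.02 and 4.42 CPM in vehicle, 5.89, 5.92 and 5.76 with LPC, 11.9, 12.2 and 15.5 with dantrolene, and 10.4, 7.33 and 11.5 with LPC + dantrolene. Its average effect of dantrolene was 0.82 ± 0.26 (adjusted p = 0.0532), and without vehicle replicate 1, the high vehicle library, TLR4 passed in dantrolene against vehicle (1.48, adjusted p = 0.0148). The adaptors and kinases MYD88, IRAK1, IRAK4, TRAF2 and TRAF6 and the tumor necrosis factor receptors TNFRSF1A and TNFRSF1B were not called in any comparison. MYD88 was at 42.3 to 112 CPM and TNFRSF1A at 75.6 to 158 CPM.

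REL, which encodes the NF-kB subunit c-Rel, at chromosome 3, 80861862 to 80912233, was the 1 subunit with a call. It was at 5.25, 5.43 and 3.66 CPM in vehicle, 14.5, 10.7 and 9.52 with LPC, 5.91, 10.1 and 8.02 with dantrolene, and 10.3, 2.98 and 11.6 with LPC + dantrolene. LPC and dantrolene libraries lay above all vehicle libraries, and LPC + dantrolene replicate 2 lay below them. REL rose by 1.28 ± 0.39 with LPC (adjusted p = 0.0213), and its values were 0.74 ± 0.39 with dantrolene (0.339) and 0.80 ± 0.39 with LPC + dantrolene (0.31).

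The REL call was lost with the replicate block (adjusted p = 0.071) and without vehicle replicate 1 (0.0724), 2 (0.0686) or 3 (0.122) or LPC replicate 1 (0.185) or 2 (0.0847), and without LPC + dantrolene replicate 2 REL passed also in LPC + dantrolene against vehicle (1.25, adjusted p = 0.00433). The abundant subunits did not follow. RELA was at 171, 185 and 190 CPM in vehicle and differed by -0.46, -0.43 and -0.32 in the 3 treatments, NFKB1, at 29.8 to 63.8 CPM, by -0.08, -0.10 and 0.01, NFKB2, at 72.8 to 161 CPM, by -0.32, -0.39 and -0.09, and RELB, at 20.5 to 43.2 CPM, by -0.41 with LPC and 0.08 with LPC + dantrolene. The 95% intervals of NFKB1 in these 3 comparisons all lay between -0.75 and 0.65.

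BCL3, an atypical IkB protein that binds NFKB1 and NFKB2 dimers in the nucleus, at chromosome 6, 51256033 to 51264923, separated LPC from LPC + dantrolene. It was at 15.5, 23.6 and 16.6 CPM in vehicle, 14.9, 6.35 and 10 with LPC, 24.8, 17.4 and 24.1 with dantrolene, and 23.3, 33.4 and 29.7 with LPC + dantrolene. All LPC libraries lay below all other libraries. BCL3 was higher in LPC + dantrolene than in LPC by 1.47 ± 0.35 (adjusted p = 0.0183), while LPC against vehicle was -0.83 ± 0.34 (0.151) and LPC + dantrolene against vehicle 0.63 ± 0.34 (0.404).

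The BCL3 call was lost with the replicate block (adjusted p = 0.096), on total counts alone (0.101), with only the groups compared (0.173), and without LPC replicate 2 (0.356) or 3 (0.177) or LPC + dantrolene replicate 3 (0.0841). The average effect of dantrolene on BCL3 was 0.86 ± 0.24 (adjusted p = 0.0232), with 0.0806 under the replicate block and 0.0685 to 0.131 without vehicle replicate 1 or 3, LPC replicate 2 or 3, dantrolene replicate 3 or LPC + dantrolene replicate 3. The inhibitor NFKBIA, an NF-kB target itself, was at 14.4, 22 and 19.7 CPM in vehicle and 22.8, 25.8 and 26.7 with LPC + dantrolene, a difference of 0.43 (adjusted p = 0.727). NFKBIZ, an inducible nuclear IkB protein, was at 44.3, 58.9 and 41 CPM in vehicle and 82.5, 67.9 and 83 with LPC, which did not overlap, but its difference of 0.69 ± 0.33 had an adjusted p of 0.267 and passed without LPC + dantrolene replicate 2 (0.76, adjusted p = 0.034). TNFAIP3, the A20 enzyme that ends NF-kB signaling, was at 4.02 to 17.2 CPM, and LPC + dantrolene against vehicle gave 0.82 ± 0.38 (adjusted p = 0.259), which passed without LPC + dantrolene replicate 2 (1.17, adjusted p = 0.00962). NFKBIE, at 9.78 to 22.3 CPM, was not called.

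**Figure D5:**
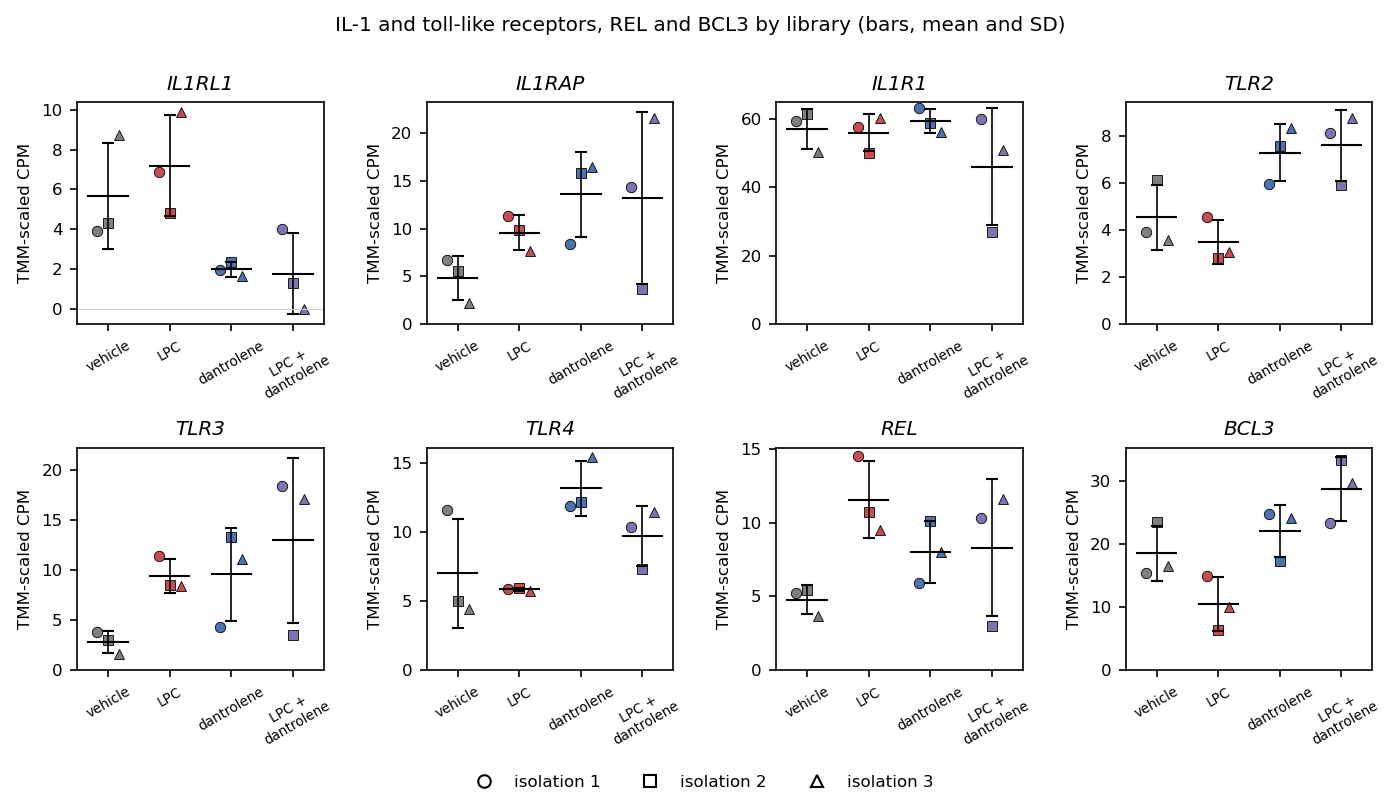
TMM-scaled CPM (vertical axes) of IL-1 family and toll-like receptors, REL and BCL3 in each library of the 4 groups (horizontal axes), with marker shapes for the isolations and bars for the mean and SD. IL1RL1 is low in both dantrolene groups apart from 1 library, TLR4 is highest in dantrolene, all 3 LPC libraries of BCL3 lie below the other 9, and LPC + dantrolene replicate 2 lies at the vehicle level for IL1RAP, TLR3 and REL.

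Of 28 tested kinases and adaptors that relay signals to NF-kB, LPC raised 5, dantrolene 3 and LPC + dantrolene 3, and 0 were lowered (17.9%, 10.7% and 10.7%, beside 8.69%, 8.8% and 7.14% of all genes called). CHUK, the kinase IKK-alpha, rose by 1.44, 1.56 and 1.54 (each SE 0.38, adjusted p = 0.00449, 0.00219 and 0.00278) and BIRC2, a ubiquitin ligase of the tumor necrosis factor receptor complex, by 1.91, 1.51 and 1.72 (each SE 0.36, adjusted p = 6.08e-05, 0.00185 and 0.000401). TAB3, a partner of the kinase TAK1, rose by 1.32, 1.16 and 1.56 (adjusted p = 0.0159, 0.045 and 0.00391). MAP3K7, which encodes TAK1, rose with LPC (1.10, adjusted p = 0.0331), as did TAB2 (1.02, 0.0447). BIRC2 was lost with dantrolene when its replicate 2 was left out (adjusted p = 0.086). CHUK was lost in all 3 treatments without vehicle replicate 2 (0.0855, 0.0541 and 0.0658), and with 1 treated library left out also for LPC (replicate 1, 0.0514) and dantrolene (replicate 2, 0.0558). TAB3 was lost with LPC and with dantrolene under the replicate block (0.0583 and 0.114) and without any single vehicle library or LPC replicate 1 or 2. Its dantrolene call was also lost with DESeq2 (0.0671), without a filter (0.0508), and without dantrolene replicate 2 (0.493) or 3 (0.0945) or LPC + dantrolene replicate 1 (0.0554), and its LPC + dantrolene call without replicate 3 of that group (0.0889). MAP3K7 and TAB2 were lost with DESeq2 (0.0579 and 0.0604), on total counts alone, with the replicate block, and without any single vehicle library or LPC replicate 1 or 2 (0.0799 to 0.276), and TAB2 also without LPC replicate 3 (0.108) or dantrolene replicate 2 (0.0558) or 3 (0.051).

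Of 22 tested further targets IL33 was the only one raised in these 3 comparisons, and 0 were lowered. That was 4.55% in each, below the 8.69%, 8.8% and 7.14% of all genes called. TNF had 0 counts in every library. Of 8 tested chemokines and receptors beyond the members, CMKLR1, the chemerin receptor, fell by 1.30 on the log2 scale with LPC + dantrolene (SE 0.40, adjusted p = 0.027). This was 12.5% of that list, beside 0.9% of all genes lowered, and 0 of the list were called with LPC or dantrolene alone. DESeq2 (0.517), RLE size factors (0.054), total counts alone (0.146), the replicate block (0.141) and a fit of only the groups compared (0.203) did not make the CMKLR1 call. It was also lost without vehicle replicate 1 or 3, LPC replicate 1 or 2, or LPC + dantrolene replicate 1 or 3 (0.0646 to 0.316). Over the 87 tested genes of the 5 wider lists, 12.6%, 10.3% and 9.2% were called in LPC, dantrolene and LPC + dantrolene against vehicle, near the shares of all genes given above.

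The remaining members were not called in any comparison. Some groups still did not overlap, as for CSF3 at 0.164 to 0.229 CPM with dantrolene and 0.286 to 0.409 CPM in vehicle. CSF1, the macrophage growth factor, was at 87 to 228 CPM and differed from vehicle by -0.48, -0.51 and -0.17, and CSF3, the granulocyte growth factor, was at or below 1.08 CPM in every library. ICAM1, at 35.9 to 100 CPM, and VCAM1, at 17.1 to 59 CPM, the ligands of leukocyte integrins, differed from vehicle by -0.43, -0.16 and -0.07 and by 0.38, 0.16 and 0.08. The 95% interval of the change lay wholly within -1 to 1 on the log2 scale for 18 of the 50 members with LPC, 19 with dantrolene and 20 with LPC + dantrolene, and for the others the interval included a change of at least 1 log2 unit. Without overlap between groups of 3, 7 members were higher and 4 lower with LPC than in vehicle (14% and 8%, beside 16.6% and 10.6% of all genes), 11 and 6 with dantrolene (22% and 12%, beside 16.1% and 11%), and 6 and 1 with LPC + dantrolene (12% and 2%, beside 4.71% and 5.74%).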

How the data were processed

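RNA of paVICs was sequenced in 12 libraries, 3 for each of 4 treatments. According to the paper's methods, reads were aligned with STAR and batch effects were adjusted with ComBat from the SVA package, and the authors deposited the result as whole-number counts for each gene without scaling to library size. The submitters' processing notes list HISAT2 2.0.5 and Sscrofa11.1 instead. The counting tool, annotation release and strand setting are not given in the sources used here. The sources used here do not name the batch that ComBat adjusted. If it was the isolation, the isolation means of each gene had already been drawn together. Since the adjustment spends degrees of freedom unknown to the tests, adjusted p can be too small. A further 4 deposited tables hold the authors' own DESeq2 comparisons (mean counts, log2 fold changes, standard errors, Wald statistics, p and adjusted p) and were not used.

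The counts were analysed with edgeR 4.0.16 in R 4.3.3. After filterByExpr and TMM scaling, 1 quasi-likelihood fit held all 12 libraries with group as its only term. A gene was called when its p, adjusted by Benjamini-Hochberg over all genes tested, was under 0.05. CPM are TMM-scaled, and errors are SD for CPM and SE for log2 fold changes. The p-values measure the spread left within groups of 3 replicates after ComBat, estimated over all 12 libraries. They may not measure the full spread among isolations, since ComBat may have adjusted for the isolation. Library totals of 16489684 to 24105935 made 3 counts worth 0.114 to 0.186 CPM, which limits low genes and reflects counting error alone. The same fit was also run on simulated counts with known fold changes. Its outcome is not given here and does not test the calls above. Positions came from the RefSeq gene table of Sscrofa11.1.

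Members were matched by symbol. They and the wider lists were chosen with earlier results of these data known. Values in every library are given for members called in at least 1 contrast, members where 1 library held over 60% of a group's sum (group mean at least 1 CPM) are given by library, and called genes of the wider lists are named. Other members given by library were chosen after their values were seen. The labels number the replicates alike in each group but name no isolation. According to the paper each experiment, run on a separate isolation, held a single replicate of every group. Samples with the same number were therefore taken as pairs, an inference that the labels do not settle. As a check, their deviations from group means had a median correlation of -0.152 (-0.536 to 0.207), and pairs from other isolations and groups 0.108. An adjustment for isolation by ComBat would fix this outcome in advance, so the check cannot settle the pairing. Alternatives comprised DESeq2 1.42.0, scaling by RLE or by total counts alone, omitting the filter, requiring a mean of at least 20 counts, fitting only the groups compared, a replicate block, and leaving out each library.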

Additional observations from a re-analysis of the deposited data

Results flagged for a closer look

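For 3 members (6%, beside 4.65% of all genes tested) the effect of LPC differed between cells with and without dantrolene by the interaction test. For IL6ST the effect of LPC with dantrolene minus that without it was -2.52 ± 0.50 (log2, SE, edgeR adjusted p = 0.000995), for LIFR -2.39 ± 0.59 (adjusted p = 0.00654) and for JAK2 -2.37 ± 0.53 (adjusted p = 0.00285). LPC + dantrolene replicate 2 was the lowest of the 9 treated libraries for all 3 genes, and without it the interactions were -2.23 for IL6ST (adjusted p = 0.00121), -2.01 for LIFR (0.00806) and -2.05 for JAK2 (0.00329). Each of the 3 interactions was lost without LPC replicate 2 and without dantrolene replicate 2. There the negative interactions over all genes, 593, numbered 4 and 31. Groups of 3 libraries were too small to test whether a single library lay apart.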

How the results depend on the processing

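No member changed sign in a comparison where it was called. Of 46 calls of members over all contrasts, 14 were made in every alternative and 32 were lost in at least 1. Of the 30 calls in the 7 planned contrasts, 12 were made in every alternative. For 5 rises and 0 falls with LPC, every count lay within 1.5 times, and 4 to 7 rises remained with 1 library left out. The cause of the changes below was not tested.

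Falls with dantrolene numbered 1, but 0 with DESeq2 and 2 without the filter, with a mean of at least 20 counts or with only the groups compared. With LPC + dantrolene against vehicle, 8 rises became 5 with only the groups compared, and 2 falls became 0 with DESeq2, 1 with RLE factors, 1 on total counts alone and 1 in the fit of the groups compared. Against LPC, 3 rises with LPC + dantrolene became 0 on total counts alone and 1 in the fit of the groups compared, and 0 falls became 2 without the filter or with a mean of at least 20 counts. Against dantrolene, 0 rises became 1 in those last 2 settings. The 1 fall of dantrolene against LPC became 0 with DESeq2, on total counts alone or with only the groups compared, and 2 without the filter or with a mean of at least 20 counts. For the average effect of dantrolene, 10 rises became 6 and 2 falls became 0 with DESeq2, and the falls became 1 on total counts alone. The 4 rises for the average effect of LPC became 2 with DESeq2 and 0 on total counts alone. On total counts alone the median of all genes moved from -0.18 to -0.0023 with LPC and from -0.11 to 0.13 with dantrolene, and the median member with dantrolene from -0.01 to 0.23.

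With the replicate block, which pairs samples of the same replicate number, 0 falls were called with LPC + dantrolene against vehicle, 0 rises with LPC + dantrolene against LPC, 0 falls in dantrolene against LPC, 4 rises for the average effect of dantrolene and 0 for that of LPC. Other counts of members stayed within 1.5 times under the block.

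With 1 library left out, rises with dantrolene numbered 4 (without dantrolene replicate 2) to 9 (without LPC + dantrolene replicate 2) and falls 1 to 2. With LPC + dantrolene against vehicle there were 6 to 12 rises and 0 to 2 falls, against LPC 0 to 5 rises and 0 to 2 falls, and against dantrolene 0 to 1 rises. Dantrolene against LPC gave 0 to 1 rises and 0 to 2 falls. Negative interactions numbered 0 (without LPC replicate 2) to 3. For the average effect of dantrolene there were 2 (without LPC replicate 2) to 13 rises, and that of LPC 0 to 7.

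Counts over all genes moved as well. Genes lower with dantrolene numbered 166, but 102 with DESeq2, 61 on total counts alone, 77 with the block and 290 with only the groups compared. Genes lower with LPC + dantrolene numbered 119, but 52, 59 and 31 in the last 3 of these. Negative interactions numbered 593, but 232 on total counts alone, 277 with the block, 4 without LPC replicate 2 and 31 without dantrolene replicate 2. Genes higher in the average effect of LPC numbered 410, but 254 with DESeq2, 3 on total counts alone, 2 with the block and 2 without vehicle replicate 2, LPC replicate 2 or dantrolene replicate 1. Low counts limit CXCL12, CXCL14, CSF3, IL1A and IL15, and the vehicle level of CXCL8.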

Other observations

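Averaged over the groups without and with LPC, dantrolene raised JAK2 by 1.11 ± 0.27 (log2, SE, edgeR adjusted p = 0.00555), TLR3 by 1.12 ± 0.29 (0.0126), LIFR by 1.09 ± 0.29 (0.0159), IL6ST by 0.87 ± 0.25 (0.0266) and IL1RAP by 0.98 ± 0.28 (0.0272). For JAK2, LIFR and IL6ST the average joins a rise without LPC to values of -0.08, -0.10 and -0.39 with LPC present, and their interactions were called. DESeq2 did not call TLR3 (0.0586), LIFR (0.0556), IL6ST (0.0693) or IL1RAP (0.101). Each of these 5 averages was lost without dantrolene replicate 2, with adjusted p of 0.11 for JAK2, 0.119 for TLR3, 0.2 for LIFR, 0.226 for IL6ST and 0.13 for IL1RAP, and likewise without vehicle replicate 2 or LPC replicate 2 (0.0607 to 0.179).

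Among the cell type markers, LUM, a collagen-binding proteoglycan of fibroblasts, rose by 1.35 with LPC, 1.59 with dantrolene and 1.35 with LPC + dantrolene (adjusted p = 0.00351, 0.000608 and 0.0042). Of the 10 fibroblast markers LUM alone was called in these comparisons (10%, beside 8.69%, 8.8% and 7.14% of all genes). Most of the 10 went the other way, with 9, 8 and 8 negative fold changes. CDH5, the cadherin of endothelial junctions, fell by 1.20 on the log2 scale with dantrolene (adjusted p = 0.0111). It was the 1 call among 7 tested endothelial markers (14.3%, beside 8.8% of all genes, 1.26% down). CDH5 was at 28.9, 37.7 and 28.7 CPM in vehicle and 14.9, 17 and 15.8 with LPC + dantrolene, where it was not called.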
